A study of Mus musculus with 6 samples.

Results

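The ubiquitin-specific proteases (USPs) were examined here by gene symbol in lung tumor specimens of mice that carry either an intact or a catalytically mutated Usp24. Every row whose symbol began with Usp followed directly by a digit was taken, except the Y-linked Usp9y, which gave 48 of the 17987 genes in the table of normalized read counts. The symbol rule used no measured value, but the members were chosen with earlier results of these data known. Of these 48 genes, 46 reached a normalized read count of 10 in 3 or more of the 6 libraries and were tested, and Usp29 and Usp44 did not.

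USPs are cysteine proteases that cut ubiquitin from proteins or from ubiquitin chains, and they form the largest family of deubiquitinases. Removing ubiquitin can spare a protein from the proteasome, return a receptor from endosomes to the cell surface, or switch off a chromatin or signaling mark. Each active enzyme relies on a cysteine near the start of its catalytic fold, within a short conserved stretch called the cysteine box.

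RNA was sequenced from lung tumors of 6 mice, 3 per genotype, to compare expression between the genotypes. All 6 mice carried a Scgb1a1-rtTA driver and an inducible EGFR L858R transgene and received doxycycline at 0.5 g/l for 10 weeks, so the transgene was driven in club cells and other cells that use the Scgb1a1 promoter. The Usp24 WT mice (M1354, M1364 and M1370) carried Egfr L858R with wild-type Usp24, and the Usp24 C1695A mice (M134, M145 and M164) carried Egfr L858R with the C1695A point mutation, made with CRISPR/Cas9 in C57BL/6J mice. The sample titles call the mutants KO, although the allele is a point mutation. The labels give no sex, age, litter or number of tumors per specimen, and p-values measure only the spread between these 6 mice.

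The mutated codon and its surroundings are shown because they identify the site that separates the genotypes and show how the same site looks in other members. In the GENCODE M21 annotation of the GRCm38 reference, the codon changed by C1695A is a cysteine codon of a Usp24 transcript of 2617 codons, in exon 43 of 68, on the + strand at chr4:106406457-106406459. The stretch of 45 coding bases around it, with the cysteine codon in capitals, is given next to those of the X-linked relative Usp9x and of 6 members whose windows lie in 1 exon and whose expression is described below.
Usp24: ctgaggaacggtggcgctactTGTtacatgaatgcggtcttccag
Usp9x: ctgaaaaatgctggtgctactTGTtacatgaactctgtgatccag
Usp33: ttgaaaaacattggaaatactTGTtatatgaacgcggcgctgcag
Usp8: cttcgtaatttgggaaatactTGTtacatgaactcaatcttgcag
Usp22: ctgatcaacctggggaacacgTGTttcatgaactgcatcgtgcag
Usp31: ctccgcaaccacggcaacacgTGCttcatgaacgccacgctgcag
Usp47: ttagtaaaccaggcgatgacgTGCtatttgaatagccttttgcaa
Usp32: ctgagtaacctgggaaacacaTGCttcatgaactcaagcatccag
The Usp9x window matched that of Usp24 at 35 of 45 bases, Usp33 at 31, Usp8 at 30, Usp32 at 28, Usp22 at 27, Usp31 at 26 and Usp47 at 21. On GRCm38 the capital codons lie at chrX:13145219-13145221 for Usp9x, chr3:152364010-152364012 for Usp33, chr2:126751101-126751103 for Usp8, chr11:61162962-61162964 for Usp22, chr7:121706858-121706860 for Usp31, chr7:112059004-112059006 for Usp47 and chr11:85027190-85027192 for Usp32. Usp22, Usp31 and Usp32 are on the - strand and the other 5 on the + strand. A single cysteine box was found in 44 of the 48 members, with the codon TGC in 23 and TGT in 21. No match to the protein pattern searched was found in Usp39, Usp53, Usp54 or Usp6nl. Other forms of the box were not searched, so a missing match does not show that the cysteine is absent. Usp6nl matches the symbol rule but encodes a GTPase-activating protein for Rab proteins, not a deubiquitinase. The deposited values are totals per gene, so they do not show the mutated base.

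Reads assigned to genes ranged from 7167000 to 14650273 per library, with M164 lowest. M164 stood apart. Transcripts in the table with symbols starting mt- took 17.2% of its reads against 1.74 to 3.10% in the other 5 libraries. Of 10 mitochondrial transcripts listed, mt-Co1, mt-Co2 and mt-Cytb were in the table under their own symbols, so these shares leave out part of the mitochondrial RNA. Another was matched through a synonym to Gm10925, which is not in these shares and was not checked to be mitochondrial. The Spearman correlations of M164 with those 5 libraries across all genes were 0.905 to 0.932 (genes are not independent replicates). Cell type markers also differed between mice. The summed level of the alveolar type 2 markers (7 of 7 in the table, none at 0) was 520441 to 594210.0 in Usp24 WT and 162713 to 470077 in Usp24 C1695A mice, so the labelled lung tissue was present in every library. The heart muscle sum (8 of 8) was 379 to 408 against 628 to 6139.6, with Myl7 and Nppa at 0 in M1364 and Nppa at 0 in M1370. The adipose sum (6 of 7) was 26.3 to 35.3 against 62.8 to 24565, with Adipoq and Plin1 at 0 in M1364 and Adipoq and Cfd at 0 in M1370. The B cell sum (7 of 7) was 273 to 297 against 224 to 9392, and the macrophage sum (5 of 5) 25303 to 40039.5 against 3912 to 25928. Of 5 sex chromosome genes listed, Kdm5d, Eif2s3y and Uty, all Y-linked, were in the table and were at 0 in M1364 and M1370 and present in the other 4 mice. In whole specimens, fewer cells of a type and less RNA per cell cannot be told apart.

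None of the 46 tested USP genes passed the adjusted threshold of 0.05 in limma-trend, where 0% of all 16640 tested genes passed. The lowest adjusted p of a member from limma-trend was 0.74. At an unadjusted p under 0.05, 7 members were lower in Usp24 C1695A mice, beside 2.93% of all genes, and 0 were higher, beside 2.61%. The 7 were Usp33, Usp10, Usp8, Usp22, Usp31, Usp47 and Usp32. Counting mice without a test, 12 members had all 3 C1695A values below all 3 WT values, beside 6.03% of all genes, and 0 tested members had them all above, beside 5.07%. Of the 46 log2 fold changes, 36 were negative, a share of 78.3% against 51.7% of all genes, with a median of -0.15 against -0.02 over all genes. All genes include many at low levels. With a filter of 50 in at least 3 libraries, 57.1% of 12463 genes were negative, with a median of -0.06. For the 45 members that passed it, the share was 80% and the median -0.17. On the reads recovered from the values, edgeR's quasi-likelihood test gave 0 members an adjusted p under 0.05 and 7 members an unadjusted one, beside 6.88% of all genes. DESeq2 gave 0 members an adjusted p under 0.05, beside 0.221% of all genes, and 8 members an unadjusted one, beside 8.25%.

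**Figure D1:**
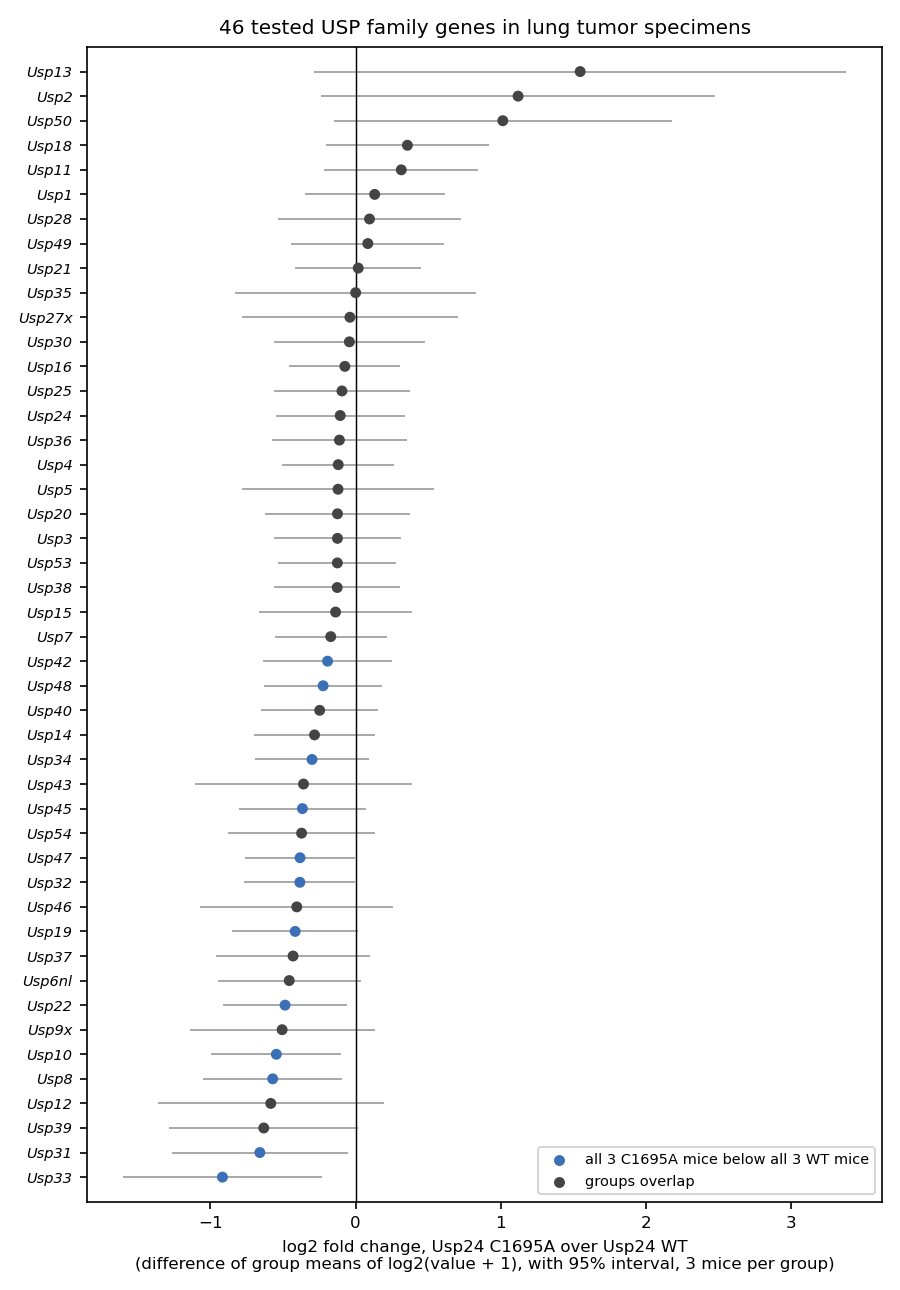
The x axis shows the log2 fold change (Usp24 C1695A over Usp24 WT, on the log2(value + 1) scale) with its 95% interval for each of the 46 tested USP genes on the y axis, 3 mice per group. Blue points mark the 12 genes with no overlap between the groups, all to the left of 0, and 36 of the 46 points are negative.

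The count of 7 changed when single mice were left out, as did the share of all genes. It was 0 without M1370 (all genes 0.565%), 1 without M1354 (1.47%), 2 without M164 (1.92%) and 14 without M1364 (7.14%). Of the 7 genes, 3 kept an unadjusted p under 0.05 in limma-trend without M134 and 5 without M145, where 6.02% and 3.2% of all genes were lower at that p. The log2 fold changes of the 7 genes were negative in all 15 alternative fits. The count of 12 became 26 without M1364, where 20.6% of all genes met the same criterion. With array weights, which give less weight to libraries that scatter more, 22 members were lower at an unadjusted p under 0.05, beside 13.9% of all genes.

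Within mice, M1370 held the highest of the 6 values in 20 of 46 members, against 19.6% of all genes. M164 held the lowest in 23, against 30.9% of all genes. Among the WT mice, M1364 was the lowest in 27 of 46 members. The median member stood 0.20 above its 6-mouse mean (log2 scale) in M1370 and 0.13 above it in M1354. It stood at -0.03 in M1364, -0.04 in M134, -0.10 in M145 and -0.20 in M164. By this measure M1364 stood closest to M134. The part of the markers, the mitochondrial share and the sex of the mice in these values was not tested. Without M164 the median log2 fold change of the members was -0.18.

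**Figure D2:**
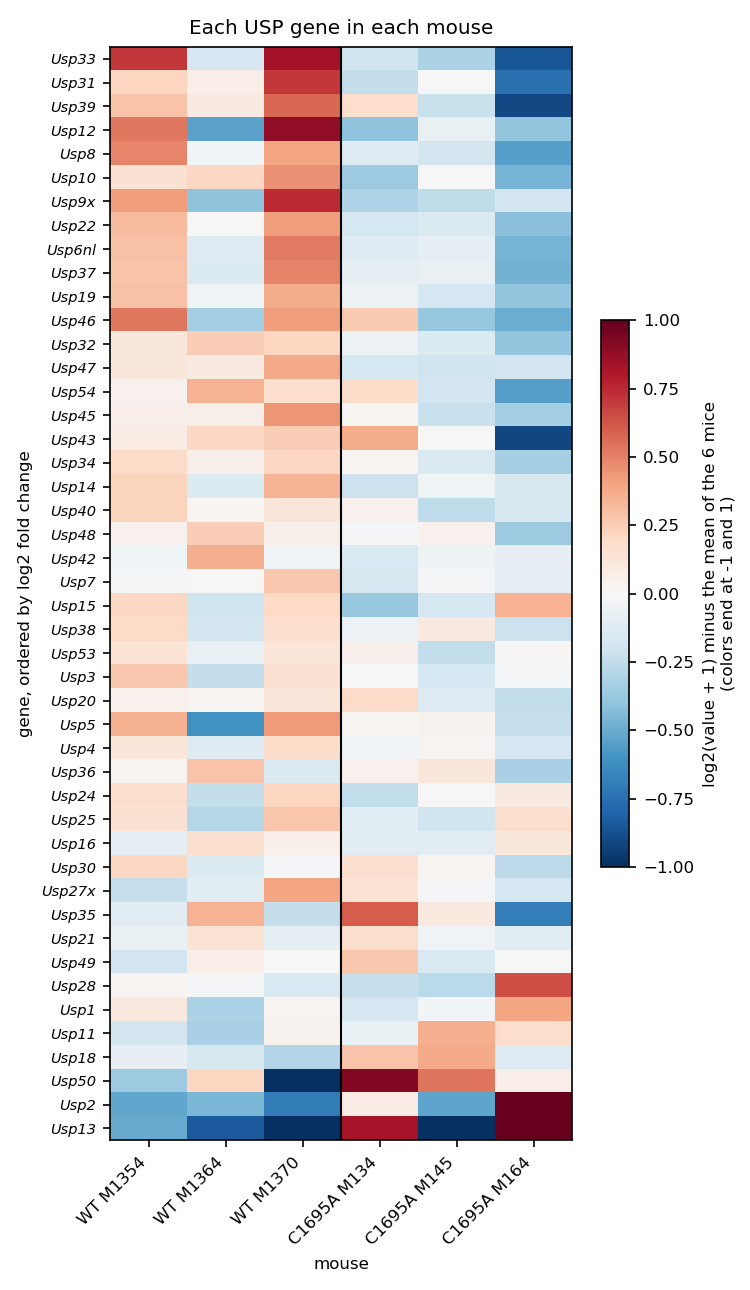
Rows are the 46 tested USP genes ordered by log2 fold change, columns the 6 mice, and color is log2(value + 1) minus the gene's 6-mouse mean. The red blocks of M1354 and M1370 at the top contrast with the blue of M164, which held the lowest value in 23 of 46 genes.

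Levels between members were compared per kilobase of annotated exon. Usp8 had the highest WT mean at 853 normalized read counts per kb, followed by Usp39 at 359, Usp7 at 346, Usp25 at 332 and Usp1 at 257. The mouse ranges of Usp39, Usp7 and Usp25 overlapped, so their order is not resolved. Usp24 was at 89.4 per kb, Usp9x at 100.4, and the lowest tested members were Usp13 at 14.7, Usp27x at 13.6 and Usp50 at 7.01. In reads, 36 of the 46 tested members had at least 100 reads in every library, and the lowest was Usp50 with 11 reads in M1370.

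**Figure D3:**
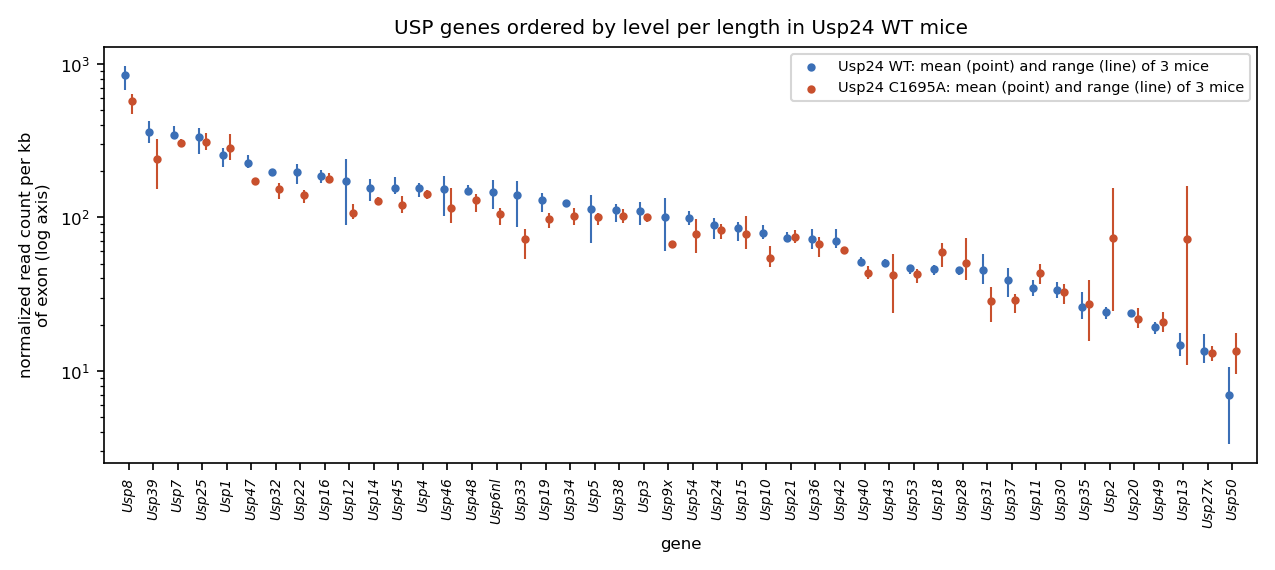
The y axis (log) shows normalized read counts per kb of exon for the 46 tested USP genes on the x axis, with the mean of 3 mice as a point and their range as a line, blue for Usp24 WT and orange for Usp24 C1695A. Usp8 leads at 853 per kb in WT mice, and the long orange lines belong to Usp2 and Usp13, which were high in M164.

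Among the large USPs, Usp24 itself was at 1194, 895 and 1225 in the WT mice and 887, 1054 and 1125 in the C1695A mice, in the order M1354, M1364, M1370 and M134, M145, M164 that is kept for all values below. The groups overlapped, with a log2 fold change of -0.11 (SE 0.19, 95% interval -0.55 to 0.34), so the library labels cannot be checked from the transcript level of the mutated gene. Usp9x, whose window matched that of Usp24 at more bases than the other 6 windows shown and which encodes a protease that stabilizes the survival protein MCL1, was at 1605, 913 and 2016 in WT and 970.1, 1007 and 1055 in C1695A mice. M1364 was lower than every mutant while the other WT mice were well above, and the log2 fold change was -0.51 (SE 0.28). Usp9x is X-linked, and the mice with and without Y-linked reads fall unevenly over the genotypes. The part of sex in the Usp9x values was not tested. Usp34, which acts on axin in Wnt signaling, was at 2368, 2148 and 2395 in WT and 2116, 1878 and 1643 in C1695A mice. Its groups did not overlap, by the small gap between 2148 in M1364 and 2116 in M134 (log2 fold change -0.30, SE 0.17), and 10.8% of its 50-base stretches are shared with Ahsa2 on the other strand.

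Of the 5 members that act on growth factor receptors and endosomes, 3 were among the 7 genes, beside 2.93% of all genes. Roles were assigned with earlier results of these data known. All 5 fold changes were negative, beside 51.7% of all genes, with a median of -0.46, which describes these 5 genes only. Usp8, the endosomal protease that deubiquitinates EGFR and works with STAM proteins, was at 4071, 2846 and 3819 in WT and 2661, 2555 and 1986 in C1695A mice. Every mutant lay below every WT mouse, M164 lowest, and the log2 fold change was -0.57 (SE 0.21, unadjusted p 0.025 and adjusted p 0.74 by limma-trend). Usp33, which deubiquitinates the beta2-adrenergic receptor, was at 1533, 836 and 1672 in WT and 815, 755 and 517 in C1695A mice. M1354 and M1370 were about even and M1364 stood just above M134, so the groups parted narrowly despite the log2 fold change of -0.92 (SE 0.30, unadjusted p 0.014 and adjusted p 0.74 by limma-trend), the most negative of all members. Usp33 shares 38.9% of its 50-base stretches with other genes, mostly Gm43857 on the opposite strand. Gm43857 was at 122, 155 and 132 in WT and 149, 140 and 123 in C1695A mice, and whether the counting used strand is not given in the sources used here.

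Usp20, the paralog of Usp33, was at 211, 207 and 223 in WT and 233, 187 and 172 in C1695A mice, and its groups overlapped (log2 fold change -0.12, SE 0.22). Usp32, a protease of the Golgi and late endosomes, was at 1437, 1580.4 and 1549 in WT and 1280.2, 1213 and 1019.6 in C1695A mice. Its groups did not overlap and M164 was again lowest (log2 fold change -0.38, SE 0.17, unadjusted p 0.049 and adjusted p 0.74 by limma-trend). Usp6nl, the GTPase-activating protein, which acts on Rab5 in EGFR uptake, was at 1213, 908 and 1422 in WT and 906, 929.9 and 719 in C1695A mice. M1364 lay between M134 and M145, so the groups overlapped (log2 fold change -0.46, SE 0.22).

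**Figure D4:**
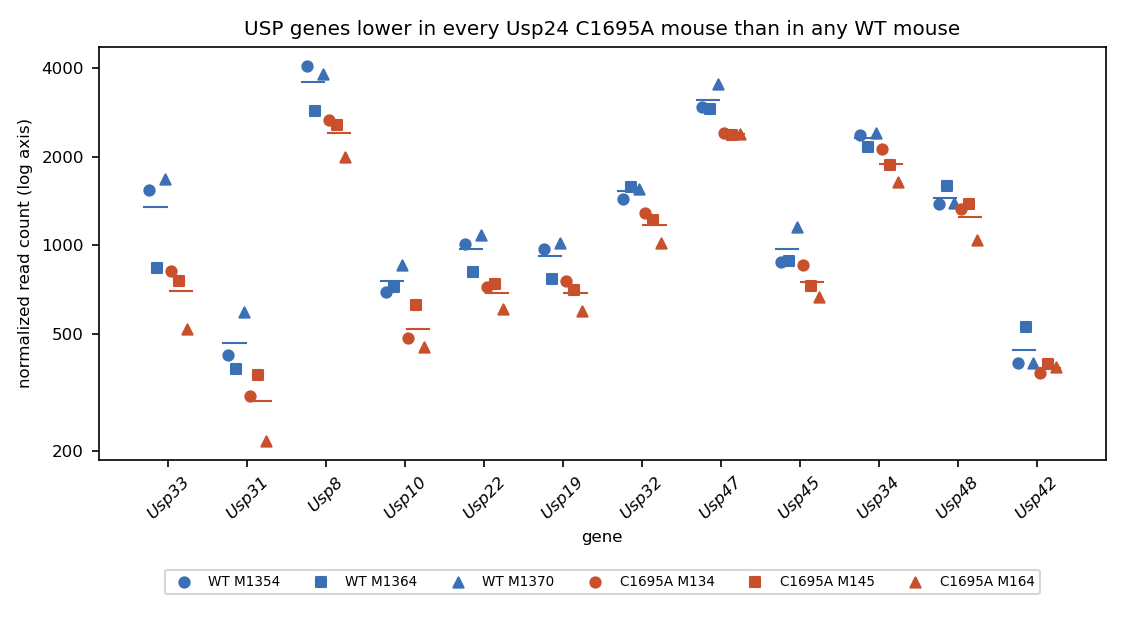
Normalized read counts (log axis) of the 12 USP genes whose groups did not overlap, with 1 symbol per mouse, short lines for group means, blue for Usp24 WT and orange for Usp24 C1695A. The gap between groups is widest for Usp47 (2895 against 2408) and nearly closed for Usp48 (1379.5 against 1379.1).

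Of the paralogs in TGF-beta and Wnt signaling, 0 of 3 passed an unadjusted p of 0.05 in limma-trend. Usp4, which acts on the type I TGF-beta receptor, was at 1387, 1172 and 1454 in WT and 1249, 1299 and 1136 in C1695A mice. Usp11, X-linked and acting on the same receptor, was at 160.0, 145.4 and 186 in WT and 173, 234 and 206 in C1695A mice, with M145 and M164 above every WT mouse and M134 among them (log2 fold change 0.32, SE 0.23). Usp15, which deubiquitinates SMAD proteins, ranged from 1164 to 1538 in WT and 1027 to 1694.8 in C1695A mice, and M164 held its highest value.

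Usp1, Usp12 and Usp46 are switched on by binding WDR48. Usp1, which acts on FANCD2 and PCNA, was at 1065, 797 and 1013 in WT and 886, 975 and 1311 in C1695A mice, and M164 was the highest of the 6. A processed pseudogene, Gm5841, shares 22.8% of the 50-base stretches of Usp1, so its reads may be split between the copies. Usp12 was at 865, 416 and 1111 in WT and 454, 571 and 457 in C1695A mice. M1364 was below every mutant and the other WT mice were above them, with a log2 fold change of -0.58 and an SE of 0.34. Usp46 ranged from 800.3 to 1463 in WT and 719 to 1216 in C1695A mice, with M1364 and the mutants M145 and M164 low.

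Among the chromatin members, Usp22 was 1 of the 7. Usp22, the H2B protease of the SAGA complex, was at 1009, 810.4 and 1084 in WT and 719, 738 and 608 in C1695A mice, with every mutant below every WT mouse (log2 fold change -0.49, SE 0.19, unadjusted p 0.03 and adjusted p 0.74 by limma-trend). Usp3, which acts on ubiquitinated H2A, was at 869, 609 and 800.0 in WT and 718, 637 and 715 in C1695A mice, and the mutants lay within the WT range. Usp16, another H2A protease, was at 1594, 1912 and 1773 in WT and 1581, 1583 and 1853 in C1695A mice, a difference within the spread (log2 fold change -0.073, SE 0.17). Usp21, Usp49 and X-linked Usp27x had log2 fold changes of 0.019, 0.085 and -0.039, each smaller than its SE (0.19, 0.23 and 0.33). Usp49 shares 52.3% of its 50-base stretches with other genes, mostly Gm20517. Untested Usp44 was at 5.19, 10.1 and 0 in WT and 6.08, 9.89 and 15.8 in C1695A mice, at most 10 reads per library.

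Of the 5 DNA damage and p53 members, 2 were among the 7 genes and 3 had groups that did not overlap, beside 2.93% and 6.03% of all genes. With 5 genes that share their libraries, these counts describe the list only. Usp10, which deubiquitinates p53 and binds the stress granule protein G3BP1, was at 692, 718 and 855 in WT and 484, 624 and 451 in C1695A mice. All mutants were below all WT mice, M145 nearest to them (log2 fold change -0.55, SE 0.20, unadjusted p 0.023 and adjusted p 0.74 by limma-trend). Usp47, which acts on DNA polymerase beta, was at 2941, 2895 and 3533 in WT and 2408, 2367 and 2382 in C1695A mice. The 3 mutants had an SD of 20.8 and lay well below the lowest WT mouse, the widest gap of the 12 genes (log2 fold change -0.38, SE 0.17, unadjusted p 0.049 and adjusted p 0.74 by limma-trend). Usp45, which acts on the excision repair protein ERCC1, was at 879, 879 and 1149 in WT and 857.5, 724 and 667 in C1695A mice. Its groups parted only narrowly, with M134 just under M1354 and M1364 (log2 fold change -0.37, SE 0.19). Usp7, the protease of MDM2 and p53, was at 2501, 2510.3 and 3041 in WT and 2258, 2503 and 2368 in C1695A mice, with M145 above M1354 in a group otherwise lower. Usp28, which stabilizes MYC, was at 277, 269 and 245 in WT and 232, 227 and 426 in C1695A mice, where M164 was the highest and M134 and M145 the lowest of the 6.

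In the cell cycle and nucleolar members, Usp42 had groups that did not overlap, at 396, 525 and 398 in WT and 366, 394 and 384 in C1695A mice. The lowest WT value, 396 in M1354, was only just above 394 in M145 (log2 fold change -0.19, SE 0.19). Usp36, a nucleolar protease, was at 541, 648 and 482 in WT and 547, 576 and 426 in C1695A mice, and Usp37, which acts on cyclin A, at 449, 335 and 519 in WT and 344, 349 and 265 in C1695A mice. For Usp37, M1364 lay below M134 and M145 and M164 was the lowest (log2 fold change -0.43, SE 0.23). Untested Usp29, a gene of the imprinted Peg3 region, was at 0, 1.44 and 0.940 in WT and 2.03, 12.9 and 29.7 in C1695A mice, at most 15 reads, with all mutants above all WT mice, and 33.8% of its 50-base stretches are shared with other genes, mostly the antisense Zim3.

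The members that handle free ubiquitin and the proteasome had fold changes of both signs. Usp5, which disassembles unanchored chains, was at 617, 315 and 648 in WT and 487, 492 and 409.8 in C1695A mice, with M1364 the lowest of all 6 mice. Usp13, the paralog of Usp5, was at 133.999, 107 and 94.9 in WT and 337, 83.1 and 1226 in C1695A mice. M164 was the highest and M134 the second highest, while M145 was the lowest of the 6, so the groups overlapped (log2 fold change 1.55, SE 0.80, adjusted p 0.74 by limma-trend). Without M164 the log2 fold change of Usp13 was 0.59 (SE 0.53). Usp13 had the lowest member p in DESeq2 (adjusted p 0.114), where the log2 fold change was 2.31. Usp14, the protease bound to the proteasome, ranged from 1064 to 1484 in WT and 1009.6 to 1135 in C1695A mice and shares 45.3% of its 50-base stretches with Thoc1 on the other strand.

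Usp2, whose expression follows the circadian clock in many tissues, was at 119, 125 and 105 in WT and 182, 119 and 754 in C1695A mice. M164 was far above the rest, M134 second, and M145 within the WT range (log2 fold change 1.12, SE 0.59, adjusted p 0.74 by limma-trend). Without M164 the log2 fold change of Usp2 was 0.34 (SE 0.28). Both Usp13 and Usp2 were highest in M164 and next highest in M134, as was the heart muscle sum (6139.6 in M164 and 1077 in M134). In M145 that sum was 628, above the WT mice at 379 to 408, whereas Usp13 was lowest there. The summed adipose, ciliated cell, endothelial and mitochondrial genes were also highest in M164, with mice other than M134 next. Of 8 skeletal muscle genes listed, 0 were in the table. The part of muscle in these values was not tested. The clock output gene Hlf, 1 of 14 clock genes listed, was at 182, 77.7 and 71.4 against 274, 123 and 681, with the same mice leading. On that list Dbp had the same leading mice, while Tef and Per3 were highest in M134 and next highest in M1354. The part of the clock in these values was not tested.

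**Figure D5:**
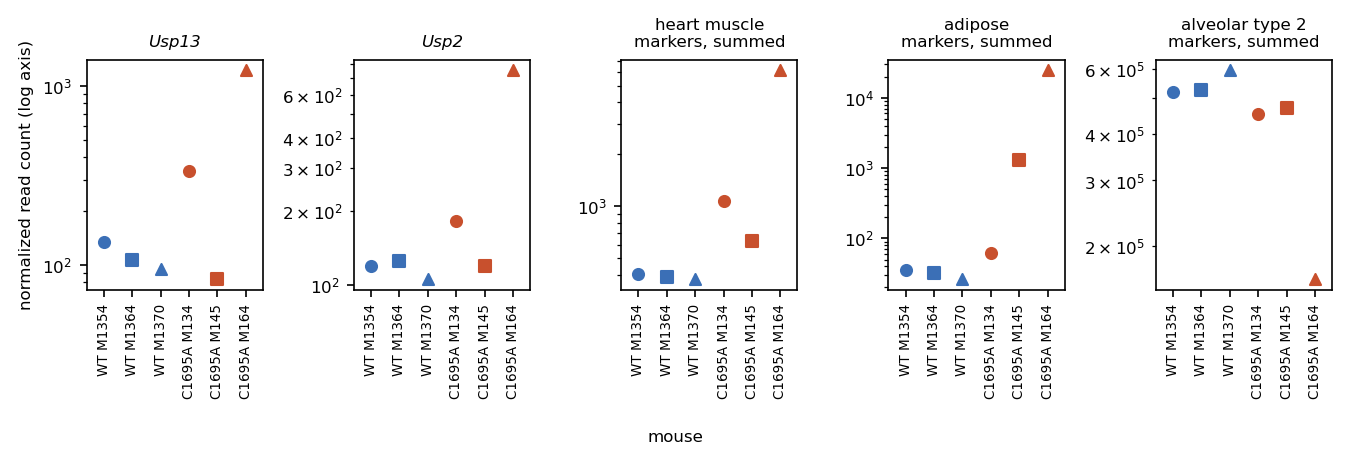
Normalized read counts (log axes) of Usp13, of Usp2 and of the summed heart muscle, adipose and alveolar type 2 markers in each of the 6 mice, blue for Usp24 WT and orange for Usp24 C1695A. Usp13, Usp2 and the heart muscle sum are highest in M164 and next highest in M134, while the alveolar type 2 sum is lowest in M164.

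Of the organelle members, Usp19, anchored in the endoplasmic reticulum, was at 966, 766 and 1019 in WT and 755, 702 and 598 in C1695A mice. Its groups did not overlap, with M134 just under M1364 (log2 fold change -0.42, SE 0.19). Usp30, the outer mitochondrial membrane protease that counters Parkin, was at 231, 181 and 197 in WT and 224, 203 and 166 in C1695A mice and showed no difference beyond its spread (log2 fold change -0.042, 95% interval -0.56 to 0.48).

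Of the interferon-linked members, Usp18, which removes ISG15 and dampens interferon signaling, was at 137, 129.5 and 118 in WT and 177, 189 and 133 in C1695A mice. M134 and M145 were above every WT mouse and M164 lay just below M1354 (log2 fold change 0.36, SE 0.25). Usp25, which acts on TRAF proteins, was at 1831, 1350.1 and 1994 in WT and 1522, 1433 and 1859 in C1695A mice, within the WT range. Usp38 ranged from 538 to 703 in WT and 527 to 649 in C1695A mice, and 24.4% of its 50-base stretches are shared with other genes.

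The 4 members Usp39, Usp50, Usp53 and Usp54 have long been classed as lacking protease activity. Usp39, a splicing factor, was at 852, 741 and 1038 in WT and 789.6, 598 and 372 in C1695A mice. M134 lay within the WT range and M164 was the lowest (log2 fold change -0.63, SE 0.28). Usp50 was at 21.8, 33.1 and 10.3 in WT and 54.7, 41.6 and 29.7 in C1695A mice on 11 to 54 reads, with M134 and M145 above every WT mouse (log2 fold change 1.01, SE 0.51). Usp53 and Usp54 ranged from 534 to 618 in WT and 472 to 579.8 in C1695A mice and from 808 to 996 in WT and 535 to 890.0 in C1695A mice, with log2 fold changes of -0.13 and -0.37.

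In the 5 less studied members, Usp31 was at 422, 380.0 and 592 in WT and 307, 362 and 216 in C1695A mice. All mutants were below all WT mice, M164 lowest and M145 closest to M1364 (log2 fold change -0.66, SE 0.26, unadjusted p 0.036 and adjusted p 0.74 by limma-trend). Usp48 was at 1379, 1586 and 1386 in WT and 1324, 1379 and 1043 in C1695A mice, and its groups parted by less than 1 normalized read count (log2 fold change -0.22, SE 0.18). Usp35 was at 125, 173 and 115 in WT and 206, 144 and 83.2 in C1695A mice, spread widest within the mutants, and Usp40 at 654, 569 and 609 in WT and 577, 469 and 501 in C1695A mice, with M134 above M1364. Usp43 ranged from 224 to 253 in WT and 113 to 275 in C1695A mice, and M164 was the lowest.

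As a description with no test, the 12 genes without overlap were set beside the other 34 tested members. Their median WT level was 144 normalized read counts per kb against 79.0 in the other 34, and their median coding length 3622.5 bp against 2661 bp. Across the 46 members, Spearman's correlation of the log2 fold change was -0.51 with the WT level per kb, -0.32 with exon length and 0.27 with coding GC content. These describe genes that share the same 6 libraries, and the WT values enter both the level and the fold change. In the 1 transcript per member with the longest coding sequence, 26 of the 48 members share none of their 50-base stretches with another gene. By the same count, 8 share more than 10%. Exons outside that transcript were not counted, and Usp50, with none shared, has an exon overlap of 204 bp with Gm10774.

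Deubiquitinases of other families were listed for context, and 35 of 37 were in the table and tested. Of these, 22 log2 fold changes were negative and 13 positive, and their median was -0.07. At an unadjusted p under 0.05, 2 were higher and 1 was lower, beside 2.61% and 2.93% of all genes. Without a test, 5 had all C1695A values above all WT values and 2 had them all below, beside 5.07% and 6.03% of all genes. Uchl1, a ubiquitin hydrolase best known from neurons, was at 12.5, 8.64 and 5.64 in WT and 21.3, 29.7 and 41.6 in C1695A mice (log2 fold change 1.69, adjusted p 0.74 by limma-trend). It rests on 6 to 30 reads per library. In M1364 and M1370 it was under the filter value of 10, so it passed the filter only with the C1695A values. It is 1 of the 2 and 1 of the 5 counted higher above. Zup1, listed as Zufsp, had a log2 fold change of 0.54 and Otud4 one of -0.46. The difference between the USPs and the other families was not tested.

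Among 11 partner proteins of USPs, 10 had a negative log2 fold change, beside 51.7% of all genes, with a median of -0.29. Stam, the endosomal partner of Usp8, was at 1201, 1117 and 1394 in WT and 1026, 954 and 640 in C1695A mice. Its groups did not overlap (log2 fold change -0.53, unadjusted p 0.042 and adjusted p 0.74 by limma-trend). The ubiquitin-activating enzymes Uba1 and Uba6 had log2 fold changes of -0.23 and -0.52, and Uba6 had no overlap. Of the 4 ubiquitin precursor genes 3 were negative and of the 4 ISG15 pathway genes 3 were positive, with 0 past an unadjusted p of 0.05 in limma-trend. Of 14 clock genes, 7 were positive and 7 negative. Per1, a light-responsive clock gene, was at 853, 803 and 930 against 763, 363 and 350 (log2 fold change -0.90, adjusted p 0.74 by limma-trend), opposite in sign to Hlf at 1.49.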

How the data were processed

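Total RNA from lung tumors of 6 mice was sequenced as 150 bp paired reads, and HISAT2 2.1.0 and mm39 are named in the submitters' processing notes. The deposited values are a signal made by the authors: read counts per gene divided by a size factor per library. They are whole multiples of 1 step per library (100% of values within 1e-06), so reads were recovered by dividing by it. The step of M145 (0.989) is close to 1, which makes its recovery the hardest to tell from unscaled counts. There, 100% of values above 0 were whole at the step and 0% as deposited (within 1e-04 reads). The counting tool, its strand setting and the annotation are not given in the sources used here. The authors' methods name DESeq.

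Genes that reached a value of 10 in 3 or more libraries (16640 of 17987) were fitted with limma-trend (limma 3.58.1, R 4.3.3) on log2(value + 1) with genotype as the only term. Fold changes are on that scale, which understates changes of low genes, and p-values were adjusted over all 16640 genes by Benjamini-Hochberg with a threshold of 0.05. The fit was tested on simulated data. The planned test assumed normalized values. Tests of counts on recovered reads (edgeR 4.0.16, DESeq2 1.42.0), other pseudocounts, filters and scalings, array weights and leaving out each mouse were alternatives. Depth was 7167000 to 14650273 reads, and counting error is smaller in deeper libraries.

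Per-mouse values were given for Usp24, for members with an unadjusted p under 0.05 or without overlap, and for up to 2 further members per role. The values of Usp44 were given beyond that rule. Members of other lists were named at an unadjusted p under 0.05 (at most 4 a list). Uba1, Uba6, Dbp, Tef, Per3, the overlapping genes and the markers at 0 were named beyond it, after their values were seen. Members, roles and lists were chosen with earlier results of these data known. Sequences came from GRCm38 with GENCODE M21. The cysteine box was searched in the coding sequence by a protein pattern. It began with asparagine, any pair of residues and 1 of N, A, M, Q or G. Next came 1 of T, S or W, cysteine, then 1 of Y, F, W or C. Shared 50-base stretches were those of each member's transcript with the longest coding sequence that occur in annotated transcripts of other genes, on either strand. Because the build differs from mm39, coordinates belong to GRCm38 only. Usp26, Usp41 and Usp51 were not analysed here.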

Additional observations from a re-analysis of the deposited data

How the results depend on the processing

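No USP gene passed the adjusted threshold under any of the 15 alternatives, edgeR and DESeq2 among them. Over all genes, DESeq2 called 36, and leaving out 1 mouse gave 0 to 40. The count of members lower at an unadjusted p under 0.05 (7) was 22 with array weights and 0 to 14 without 1 mouse. The shares of all genes there were 13.9% and 0.565 to 7.14%. The count higher (0) was 1 with no filter (Usp29), 2 with array weights, 2 in edgeR, 2 in DESeq2 and 0 to 2 without 1 mouse. In either direction, 6.88% of all genes had such a p in edgeR and 8.25% in DESeq2. The share of all genes higher was not computed for these alternatives, so the counts higher are not read as a result about the members. Members without overlap numbered 12 to 26 lower and 1 to 2 higher without 1 mouse, where 7.52 to 20.6% and 6.53 to 16.4% of all genes did, and 1 was higher with no filter (5.66%). The members' median log2 fold change (-0.15) was -0.28 with array weights and -0.27 to -0.15 without 1 mouse. For the other deubiquitinases, the median (-0.07) was 0.013 under quantile normalization and -0.18 to 0.012 without 1 mouse. Their count at an unadjusted p under 0.05 in either direction (3, all genes 5.54%) was 11 with array weights and 1 to 4 without 1 mouse. With array weights, 13.9% of all genes were lower at that p. The share of all genes in either direction was not computed for these alternatives, so these counts are not read as a result about deubiquitinases. The cause of these shifts was not tested.

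Of the 46 members, 32 kept the sign of their log2 fold change under all 15 alternatives and 14 did not. Quantile normalization turned Usp24 to 0.0023, Usp35 to -0.13, Usp25 to 0.033 and Usp16 to 0.065. Array weights turned Usp1 to -0.067, Usp28 to -0.16 and Usp36 to 0.088. Without 1 mouse the ranges were -0.065 to 0.094 for Usp21, -0.16 to 0.15 for Usp27x, -0.033 to 0.25 for Usp1, -0.14 to 0.076 for Usp30, -0.45 to 0.064 for Usp5, -0.30 to 0.35 for Usp35, -0.34 to 0.017 for Usp15, -0.20 to 0.25 for Usp28, -0.63 to 0.0054 for Usp43, -0.21 to 0.022 for Usp36, -0.26 to 0.021 for Usp25 and -0.029 to 0.18 for Usp49. The cause was not tested. No paired analysis was possible because the labels give nothing, such as a litter or batch, that links mice across the genotypes. With 3 mice per genotype, the 95% interval of the log2 fold change left out 0 in 7 of 46 members, before adjustment. They are the same 7 genes as at an unadjusted p under 0.05 in limma-trend, not a further result. In either direction, 5.54% of all genes had such a p.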
